A study of Homo sapiens with 96 samples.

Results

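HL60 is a human promyelocytic leukaemia cell line, and the comparison described here is its response to an inhibitor of lysine-specific demethylase 1 (LSD1) given alone. The libraries were those whose labels name HL60 with the treatment 552A or DMSO, which gave 8 of the 96 libraries of the series. The 4 552A libraries came from cells kept in 1 µM GSK2879552 for 2 or 4 days, and the 4 DMSO libraries from cells kept in 0.1% DMSO for the same times, with 2 replicates per treatment and day. The treatment protocol names GSK2879552 and no 552A, and the 552A libraries were taken as that arm because the compound's name ends in the same digits. The rest of the series covers ATRA, both agents together, and 5 further acute myeloid leukaemia lines (Kasumi1, MOLM13, MV411, OCIAML3 and THP1). Nothing in the labels says that replicates were separate cultures, so the p-values reflect how far these libraries scatter, and that scatter may be technical. HL60 is a single clonal line, so no value here speaks for patient cells. In bulk RNA, a larger share of cells that express a gene and more RNA of it per cell cannot be told apart.

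LSD1, encoded by KDM1A, is a flavin-dependent enzyme that removes methyl groups from lysine 4 of histone H3. In blood cells it works in a complex with the scaffold RCOR1 and histone deacetylases, and the zinc finger repressors GFI1 and GFI1B bring the complex to their target genes through a short SNAG domain. In leukaemic blasts, loss of LSD1 activity is known for the appearance of myeloid surface antigens such as CD86 and CD11b. The question of the comparison was which genes the inhibitor alone changed in HL60.

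The cells were checked against markers of the line. MYC, amplified in HL60, had 548 to 2669 CPM (counts scaled to the normalised library size) with 552A and 1113 to 1713 CPM with DMSO, and the granule peroxidase gene MPO had 2128 to 3204 CPM with 552A and 1712 to 3064 CPM with DMSO. Other granule markers went against a promyelocyte profile. The neutrophil elastase gene ELANE had a single library above 0 with 552A (0.0357 CPM) and none with DMSO, and PRTN3 and AZU1 had 1.36 to 7.77 CPM with 552A and 2.81 to 14.8 CPM with DMSO. HLA-DRA, listed among the markers expected to be low in HL60, had no counts in any of the 8 libraries. CDKN2A, listed as at or near 0 in HL60, went against that, with 5.13 to 7.45 CPM with 552A and 6.72 to 8.90 CPM with DMSO.

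The 8 libraries held 16.62 M to 29.93 M counts. A trend with the GC content of genes moved with the treatment. Its slope was -0.50, -0.23, 0.0004 and 0.07 log2 units per 10% GC in the 552A libraries and 0.13, -0.04, 0.32 and 0.24 in the DMSO libraries, each against the mean of the 8. Genes called higher with 552A had a median GC content of 43.1% and genes called lower one of 60.8%, against 48.8% for all genes tested. The part of this trend in any single call was not tested directly. Counts were therefore also taken from a fit with an offset per library for GC content and gene length. Mitochondrially encoded genes took 0.778 to 4.00% of the counts with 552A and 0.736 to 1.96% with DMSO, and 1 of the 13 passed the test (MT-ND4, log2 0.70), with a median of 0.59 for the list. None of the 13 passed with GC content and length offsets, and 17.9% of all genes tested passed without them.

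Across both days, 552A changed 2896 of 16221 genes tested (17.9%) at an adjusted p under 0.05 in edgeR's quasi-likelihood test with day as a factor. Of these, 1352 were higher (8.33% of all tested) and 1544 lower (9.52%), and the median log2 fold change over all genes was 0.005. Among the 161 called genes with a log2 fold change of at least 2 in size, 142 were higher and 19 lower, while 2153 calls were under 1. With GC content and length offsets 859 genes were higher (5.3%) and 728 lower (4.49%), 9.78% in all, and 1200 of the 2896 calls were shared with that fit. Fitted together with the other 8 HL60 libraries, 470 were higher (2.51%) and 95 lower (0.508%), 3.02% of the genes that fit tested, and 541 calls were shared. The count was 1855 without 552A day 4 replicate 1 and 1869 without DMSO day 4 replicate 1.

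**Figure D1:**
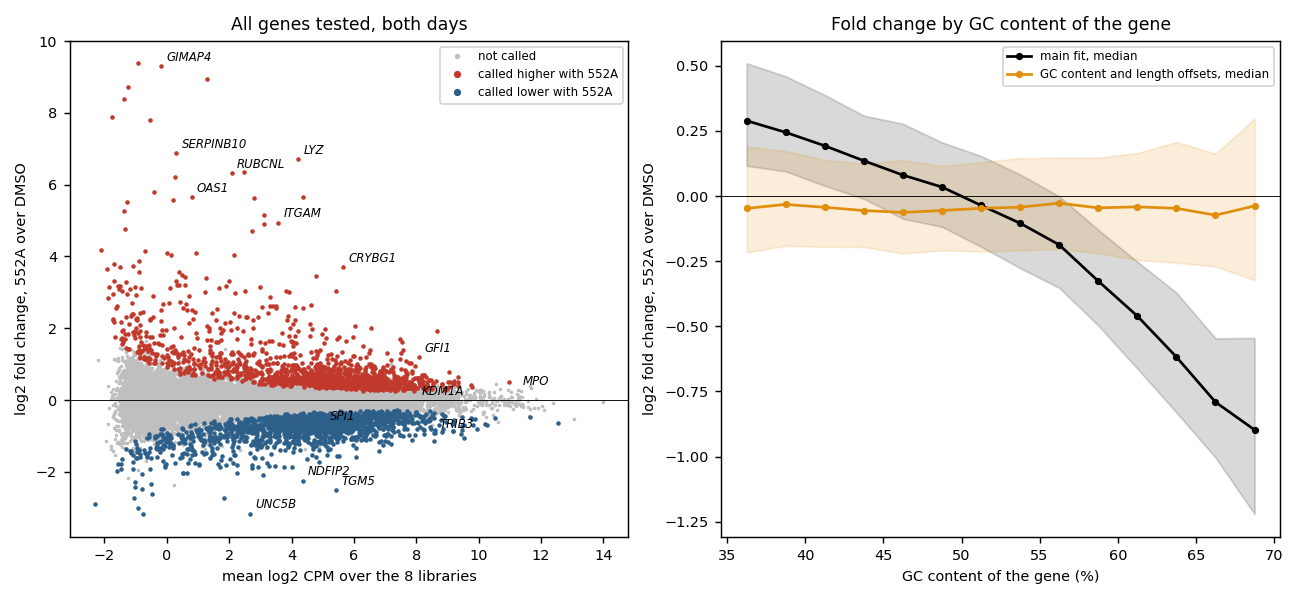
Left, log2 fold change (552A over DMSO, both days) against the mean log2 CPM of the 8 libraries for the 16221 genes tested; red points were called higher with 552A and blue points lower. Right, median and interquartile range of the log2 fold change in bins of gene GC content, in the main fit (black) and with GC content and length offsets (orange). The largest rises reach log2 values above 8, the largest falls stay above -4, and the black line slopes down with GC content while the orange line is flat.

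The largest rises included several genes of mature myeloid cells. LYZ (chromosome 12, 69348341 to 69354234, plus strand), the gene of the antibacterial enzyme lysozyme, had 234, 269, 154 and 127 CPM with 552A and 3.06, 2.37, 1.27 and 0.994 CPM with DMSO, in the order day 2 replicates 1 and 2 and day 4 replicates 1 and 2, which all lists of values follow. The groups did not overlap. LYZ was higher at day 2 than at day 4 under both treatments, and its rise was 104-fold (log2 6.70 ± 0.16, SE, n = 4 each; adjusted p = 1.12e-09). CLEC4A, an inhibitory C-type lectin receptor of myeloid cells, had 62.4, 44.97, 49.3 and 38.7 CPM with 552A and 0.415, 0.439, 0.788 and 0.691 CPM with DMSO. This was an 81.9-fold rise (log2 6.36 ± 0.24, adjusted p = 5.01e-08).

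Both antigens commonly used to follow LSD1 inhibition were among the 16 largest rises. ITGAM (ENSG00000169896.16, chromosome 16, 31259967 to 31332892, plus strand), which encodes the CD11b chain of complement receptor 3, had 54.1, 93.2, 49.0 and 68.0 CPM with 552A and 1.85, 1.49, 2.57 and 2.68 CPM with DMSO. CD86 (ENSG00000114013.15, chromosome 3, 122055366 to 122121139, plus strand), which encodes a costimulatory ligand for T cells, had 62.9, 59.1, 40.9 and 50.1 CPM with 552A and 1.36, 0.571, 2.09 and 1.94 CPM with DMSO. For both genes every 552A library was far above every DMSO library. The fold changes were 30.7 for ITGAM (log2 4.94 ± 0.26, adjusted p = 4.56e-07) and log2 5.14 ± 0.30 for CD86 (adjusted p = 1.11e-06). CD14, the monocyte co-receptor for bacterial lipopolysaccharide, was not tested, with at most 0.143 CPM in 552A libraries and 0.130 CPM in DMSO libraries.

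The promoter windows of ITGAM, CD86 and MNDA are shown because these genes rose together and because GFI1 and the myeloid factor PU.1 are known to bind the regulatory DNA of myeloid genes. They are RefSeq windows (GRCh38.p14) from 250 bases before to 50 after the annotated start, at chr16:31259725-31260024, chr3:122055112-122055411 and chr1:158831101-158831400, all on the plus strand. Capitals mark GAGGAAG, a PU.1 core, or its reverse complement CTTCCTC.
ITGAM: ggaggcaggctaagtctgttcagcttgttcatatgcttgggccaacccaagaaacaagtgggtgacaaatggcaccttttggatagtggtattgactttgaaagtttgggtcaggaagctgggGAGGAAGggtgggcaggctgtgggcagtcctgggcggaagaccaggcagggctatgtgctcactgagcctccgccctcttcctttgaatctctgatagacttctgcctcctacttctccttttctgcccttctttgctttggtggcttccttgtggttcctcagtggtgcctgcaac
CD86: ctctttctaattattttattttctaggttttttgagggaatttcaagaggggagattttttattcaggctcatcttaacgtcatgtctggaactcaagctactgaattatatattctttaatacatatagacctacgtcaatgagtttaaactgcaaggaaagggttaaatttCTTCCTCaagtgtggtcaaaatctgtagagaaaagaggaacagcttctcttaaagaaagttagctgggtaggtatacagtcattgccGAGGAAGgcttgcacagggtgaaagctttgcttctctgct
MNDA: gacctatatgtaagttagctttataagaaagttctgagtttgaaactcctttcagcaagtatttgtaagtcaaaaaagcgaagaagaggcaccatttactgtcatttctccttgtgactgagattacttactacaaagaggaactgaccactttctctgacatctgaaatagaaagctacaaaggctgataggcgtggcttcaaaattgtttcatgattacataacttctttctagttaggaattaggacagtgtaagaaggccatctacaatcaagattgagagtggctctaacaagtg
The ITGAM window holds the 7-letter core once, 127 bases before the start. The CD86 window holds it 2 times, with first bases 77 before the start on the minus strand and 11 after it on the plus strand, and the MNDA window does not hold it. Of the 16 largest rises 10 had a window in the reference table, and 4 of these held GAGGAAG on either strand (ITGAM, CD86, AFF2 and LRRK2). Only the first window listed for a gene was used. The windows of AFF2 and LRRK2 begin at 148718841 and 40224747, inside genes that start at 148500619 and 40196744 in GENCODE. Of the 12 largest falls 5 had one, and NDFIP2 held it. Over all 35114 windows of that length the share was 13.6%. The 6-letter GFI1 core AAATCA, searched on both strands, was in none of these 15 windows and in 13.2% of all windows. These matches describe the windows and were not tested.

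The other large rises covered several kinds of protein. MNDA, a nuclear protein of the PYHIN family, had 184, 228, 114 and 102 CPM with 552A and 3.36, 6.98, 1.23 and 1.99 CPM with DMSO (log2 5.65 ± 0.25, adjusted p = 1.54e-07). RUBCNL, which takes part in autophagosome maturation, had 31.6, 29.2, 38.3 and 45.7 CPM with 552A and 0.529, 0.703, 0.343 and 0.216 CPM with DMSO (log2 6.32 ± 0.27, adjusted p = 1.03e-07). CRYBG1, a beta/gamma-crystallin domain protein, was the most abundant of these in DMSO libraries, with a mean of 180 ± 21.4 CPM with 552A and 13.9 ± 1.31 CPM with DMSO (SD, n = 4 each), a 13-fold rise. The nuclear protein gene AFF2 (48.3 ± 10.46 CPM with 552A and 0.952 ± 0.253 CPM with DMSO), the homeobox gene CUX2 (33.7 ± 3.19 and 1.31 ± 0.457 CPM) and the intracellular protease inhibitor gene SERPINB8 (48.3 ± 10.6 and 1.57 ± 0.420 CPM) rose by log2 5.64, 4.71 and 4.92. The kinase gene LRRK2, GLIPR1, the mast cell immunoglobulin-like receptor gene MILR1, the microtubule minus-end protein gene CAMSAP2 and the ubiquitin ligase gene DTX4 followed, with log2 fold changes from 3.19 to 4.03. All 15 of these rises were called in every alternative fit, with each library left out, and when tested against a fold of 1.5.

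**Figure D2:**
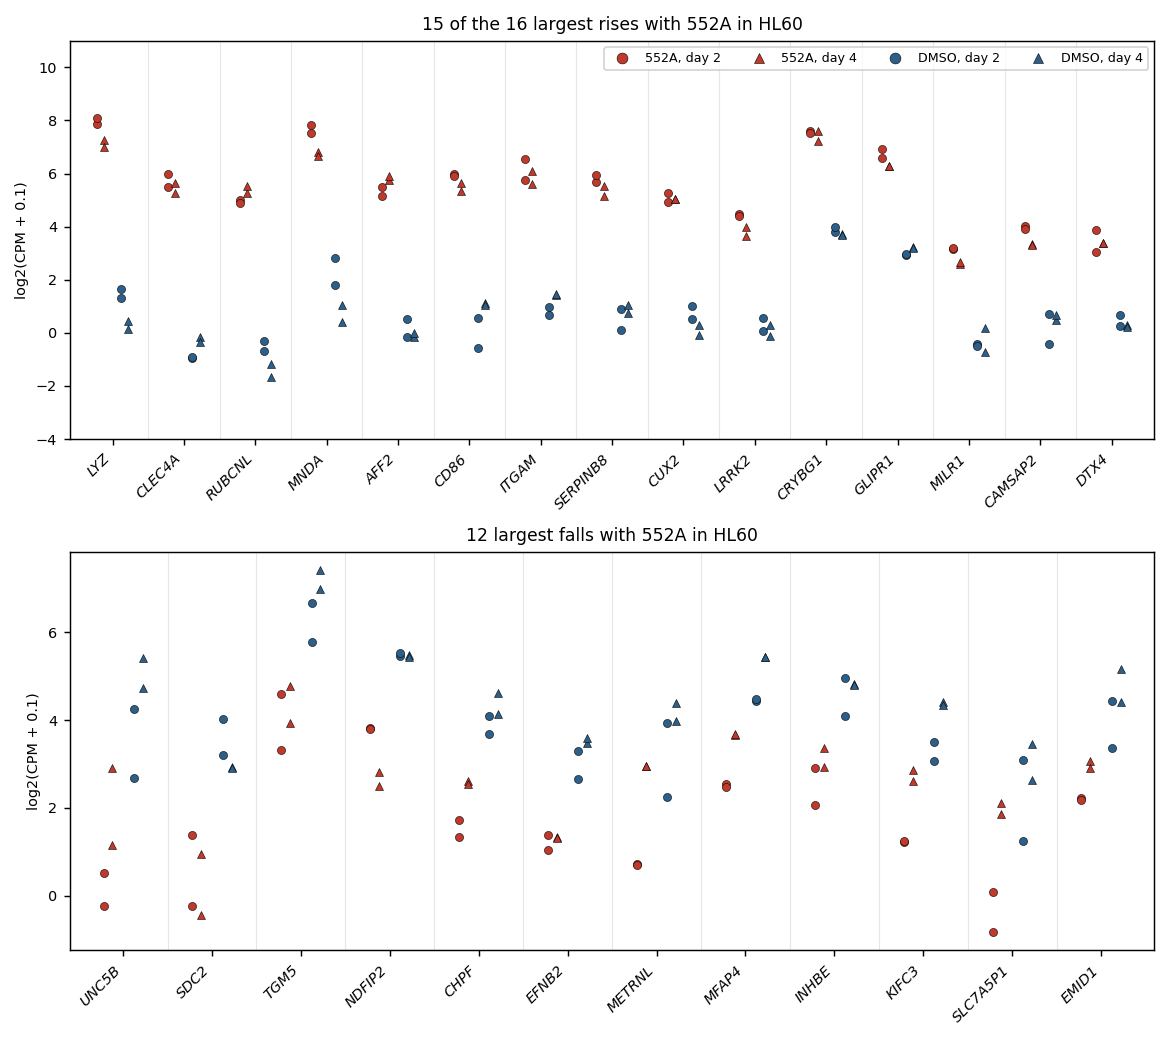
Level in each library, as log2(CPM + 0.1), of 15 of the 16 largest rises (top) and 12 largest falls (bottom); 552A libraries are red and DMSO libraries blue, with circles for day 2 and triangles for day 4. Within each day the 2 treatments do not overlap for any of these genes, which is part of how they were chosen.

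The largest falls were smaller than the largest rises. UNC5B, a netrin receptor of axon and vessel guidance, had 1.33, 0.749, 2.12 and 7.41 CPM with 552A and 19.2, 6.28, 26.3 and 42.7 CPM with DMSO. Its highest 552A library, day 4 replicate 2, was above the lowest DMSO library, day 2 replicate 2, so the groups overlapped across days though not within a day (log2 -3.17 ± 0.44, adjusted p = 0.000804). TGM5, a transglutaminase gene, had 9.97, 24.04, 15.1 and 27.2 CPM with 552A and 55.3, 102, 127 and 171 CPM with DMSO (log2 -2.51 ± 0.30, adjusted p = 0.000325). NDFIP2, an adaptor of NEDD4-type ubiquitin ligases with a low GC content (35.03%), had 14.0, 13.7, 6.95 and 5.55 CPM with 552A, against a narrow range of 43.2 to 46.5 CPM with DMSO. Its fold was lower at day 4 (log2 -2.82) than at day 2 (-1.71), a difference that did not pass the test over all genes (-1.11 ± 0.23, adjusted p = 0.945). The heparan sulphate proteoglycan gene SDC2 (log2 -2.74), the chondroitin synthesis factor gene CHPF (-2.10), the ligand gene EFNB2 (-2.04), METRNL (-1.88), the microfibril protein gene MFAP4 (-1.87), the activin subunit gene INHBE (-1.86), the motor gene KIFC3 (-1.86) and EMID1 (-1.84) followed. In the fit of all 16 HL60 libraries CHPF, METRNL, KIFC3 and EMID1 were not called. SLC7A5P1 (-1.85) is a pseudogene whose reads cannot be told apart from those of its parent gene with certainty. Its call ended with GC content and length offsets and in the fit of all 16 HL60 libraries. Like UNC5B, METRNL and SLC7A5P1 overlapped across days, with 552A day 4 libraries above DMSO day 2 replicate 2.

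The targeted enzyme and its partners were measured next. KDM1A had 232, 297, 255 and 246 CPM with 552A and 248, 303, 248 and 239 CPM with DMSO, with a log2 fold change of -0.01 ± 0.10 (adjusted p = 0.963). Since the enzyme and not its mRNA is inhibited, the labels cannot be checked on KDM1A. The scaffold gene RCOR1 had a log2 fold change of -0.04 ± 0.10 (adjusted p = 0.811). GFI1, the repressor that recruits LSD1, had 353, 408, 439 and 451 CPM with 552A and 175, 180, 189 and 174 CPM with DMSO. The groups were far apart, with a 2.29-fold rise (log2 1.20 ± 0.09, adjusted p = 1.01e-05). GFI1B, its erythroid and megakaryocytic relative, was too low to test, with 40 counts in the 4 552A libraries and 2 in the 4 DMSO libraries, a ratio of 21.8 (exact 95% interval 5.65 to 186, counting error only). Of the 14 tested members of the LSD1 complex and GFI1 partner list, GFI1 rose, HMG20B fell (log2 -0.80 ± 0.16, adjusted p = 0.00778, a call that ended with GC content and length offsets) and 12 were not called. The median of the list was -0.04, and 17.9% of all genes were called.

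Chemoattractant receptors and neutrophil function genes were the list with the most rises. Of 18 members tested, 13 were higher and 1 lower, with a median log2 fold change of 1.82, against 8.33% higher and a median of 0.005 over all genes. The formyl peptide receptor gene FPR2 had 33.8, 36.4, 16.03 and 24.3 CPM with 552A and 3.97, 3.86, 2.67 and 4.06 CPM with DMSO (log2 2.88 ± 0.20, adjusted p = 4.76e-06). Its relative FPR1 rose by log2 3.19 ± 0.38 (adjusted p = 0.000284). The proton-sensing receptor gene GPR65 had 69.8, 57.5, 56.8 and 59.5 CPM with 552A and 9.06, 8.04, 10.6 and 11.6 CPM with DMSO (log2 2.64 ± 0.14, adjusted p = 4.59e-07), and the fatty acid receptor gene GPR84 rose by log2 2.63. The calgranulin genes S100A8 (14.3 ± 6.36 CPM with 552A and 3.41 ± 0.683 CPM with DMSO), S100A9 (32.4 ± 7.96 and 9.35 ± 0.782 CPM) and S100A12 (0.543 ± 0.195 and 0.0389 ± 0.0285 CPM) rose by log2 2.01, 1.77 and 3.65. PADI4, which citrullinates histones in neutrophils, rose by log2 2.24 ± 0.26 (adjusted p = 0.000227), and CXCR4, the marrow retention receptor, by 1.02 ± 0.11 (adjusted p = 0.000149). C3AR1, the receptor of complement fragment C3a, fell by 0.99 on the log2 scale (SE 0.21, adjusted p = 0.00863). With GC content and length offsets the list had 14 higher and 1 lower, and with all 16 HL60 libraries 10 and 0.

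Monocyte and macrophage genes moved one way where they were called. Of the 15 tested of 25 listed, 8 were higher and 0 lower (median log2 1.17), against 8.33% higher and 9.52% lower over all genes. Beside LYZ and GLIPR1 these were the amino acid transporter gene SLC7A7 (9.20 ± 1.21 CPM with 552A and 1.04 ± 0.267 CPM with DMSO, log2 3.13), MS4A7 (log2 2.93), RNASE6 (2.56), the cholesterol esterifying enzyme gene SOAT1 (1.40), the cathepsin gene CTSS (77.5 ± 4.71 and 30.5 ± 2.21 CPM, log2 1.35) and CYBB, the catalytic subunit of the phagocyte oxidase (27.2 ± 9.87 and 11.7 ± 1.78 CPM, log2 1.17). Among the 6 oxidase subunits CYBB was the rise and CYBA, its membrane partner, the fall (log2 -0.92 ± 0.22, adjusted p = 0.0144). The CYBA call ended with GC content and length offsets.

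The myeloid surface receptors split. Of 15 tested, 7 were higher and 5 lower, with a median of 0.03, against 8.33% higher and 9.52% lower over all genes. Higher beside ITGAM and CD86 were the myeloid lectin receptor gene CLEC12A (12.9, 9.24, 9.17 and 3.49 CPM with 552A and 1.28, 0.790, 0.137 and 0.0864 CPM with DMSO, log2 4.11 ± 0.45), the beta-glucan receptor gene CLEC7A (log2 1.88), the macrophage growth factor receptor gene CSF1R (1.03), ITGAX (1.00) and CD33 (0.48). Lower were the neutrophil growth factor receptor gene CSF3R (17.6 ± 3.85 CPM with 552A and 43.4 ± 3.96 CPM with DMSO, log2 -1.29 ± 0.16, adjusted p = 0.000325), CD300A (-1.16), ITGB2 (-0.64), ANPEP (-0.44) and CSF2RB (-0.37). With GC content and length offsets 7 were higher and 1, CSF3R, lower. ITGB2 encodes the beta chain that pairs with CD11b. CD38, an ectoenzyme of immature and activated leukocytes, rose by log2 0.68 ± 0.16 (adjusted p = 0.0157).

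Granule genes were called at about the share of all genes (17.9%). Of 8 azurophil granule genes tested, BPI, which encodes a protein that kills Gram-negative bacteria, was higher (129, 248, 223 and 283 CPM with 552A and 70.9, 114, 98.3 and 125 CPM with DMSO; log2 1.11 ± 0.20, adjusted p = 0.00441) and 7 were not called, among them MPO (0.28 ± 0.17, adjusted p = 0.287), which was called higher with GC content and length offsets (log2 0.84). The BPI call ended in the fit of all 16 HL60 libraries. Of 16 specific and gelatinase granule genes 4 were tested and CAMP was higher, at about 1 CPM. LTF, LCN2, CEACAM8, MMP8, OLFM4, CRISP3 and ORM1 had no counts in any of the 8 libraries.

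Innate sensing genes were called in part. Of 20 pattern recognition and inflammasome genes tested, 7 were higher and 2 lower (median 0.47), and with GC content and length offsets 9 and 3. Over all genes 8.33% were higher and 9.52% lower, and with the offsets 5.3% and 4.49%. LY96, which encodes the MD-2 co-receptor of TLR4, had 7.03, 6.67, 5.92 and 5.63 CPM with 552A and 0.151, 0.0878, 0.103 and 0.173 CPM with DMSO, a log2 fold change of 5.56 ± 0.26 (adjusted p = 2.01e-07). TLR4 itself fell, to 13.5 ± 6.47 CPM with 552A against 29.3 ± 8.35 CPM with DMSO (log2 -1.23 ± 0.19, adjusted p = 0.00166). The lipopeptide receptor gene TLR1 rose to 16.4 ± 3.38 CPM with 552A, against 1.98 ± 0.486 CPM with DMSO (log2 3.03). The inflammasome genes NLRC4 (log2 1.60), NLRP12 (1.65) and AIM2 (4.19), and the cytokine genes IL1B (1.31) and IL1RN (2.51), rose, and the chemokine gene CCL5 fell (-1.53). Of 21 interferon response genes tested, 4 were higher, OAS1 (5.65 ± 0.42), MX2 (1.14), BST2 (0.66) and DDX58 (0.52), IRF7 was lower (-1.91) and 16 were not called. Of all genes 17.9% were called. The calls of DDX58 and IRF7 ended with GC content and length offsets. Of the SP100 family of nuclear body proteins SP140 (40.1, 37.5, 28.9 and 27.5 CPM with 552A and 7.33, 8.04, 5.41 and 5.53 CPM with DMSO; log2 2.35 ± 0.11, adjusted p = 2.1e-07), SP110 (1.34) and SP100 (0.48) were higher and the remaining member was not called. SP140 and SP110 were called with GC content and length offsets, and SP100 was not.

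Class II genes were near the detection limit. HLA-DMA and CD1D were higher (log2 1.43 and 2.31) of 4 class II and CD1 genes tested, at means of 0.575 and 0.726 CPM with 552A and 0.218 and 0.140 CPM with DMSO. CD1A had 25 counts in the 552A libraries and 0 in the DMSO libraries, at least 9.07-fold higher against a floor of 3 counts over the 4 libraries. Of 12 class I genes tested 4 were higher, the trimming enzyme genes ERAP2 (0.86) and ERAP1 (0.40), NLRC5 (0.51) and B2M (0.36). Over all genes 8.33% were higher and 9.52% lower. ERAP2, NLRC5 and HLA-E were higher with GC content and length offsets. FCRL4, a Fc receptor-like gene of memory B cells, had 3.63, 4.71, 3.34 and 2.06 CPM with 552A and no counts with DMSO, at least 117-fold higher against the same floor.

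**Figure D3:**
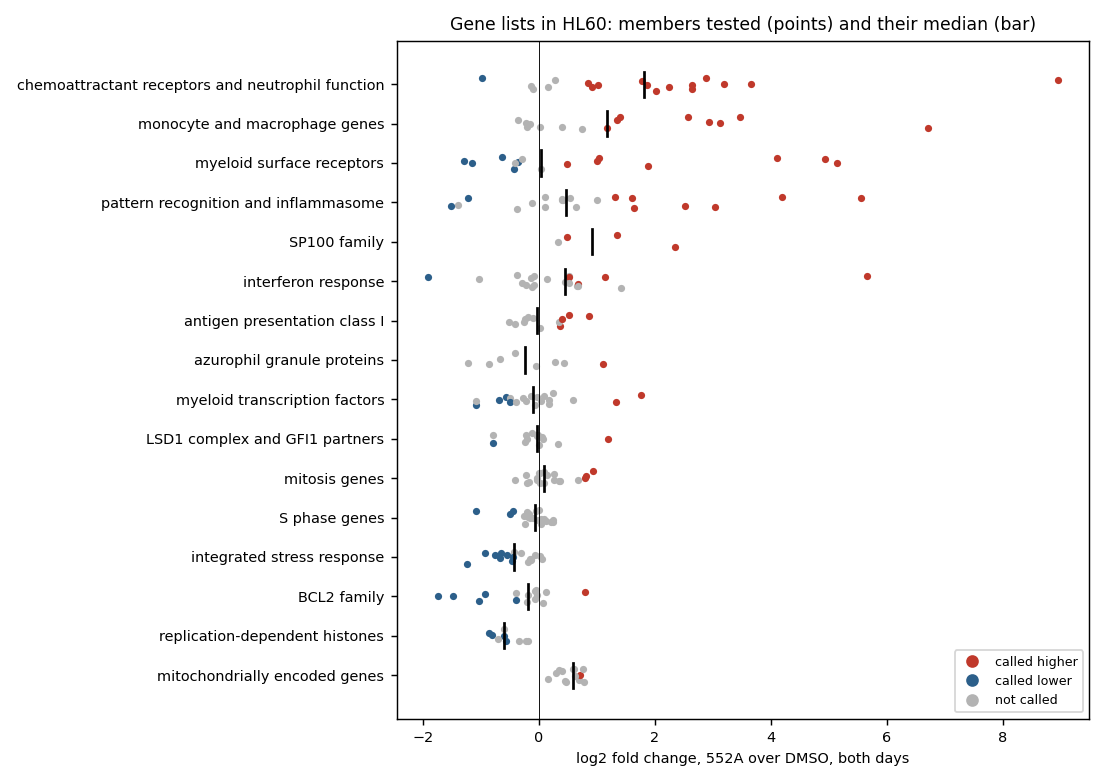
Log2 fold change (552A over DMSO, both days) of each tested member of 16 gene lists, with red points called higher, blue points called lower and grey points not called; black bars are list medians. The chemoattractant and monocyte lists have medians of 1.82 and 1.17, and the stress response and histone lists medians of -0.44 and -0.60.

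Myeloid transcription factors had calls in both directions, and 17.9% of all genes were called. Of 20 factors tested, KLF4 (2.52 ± 0.755 CPM with 552A and 0.802 ± 0.554 CPM with DMSO, log2 1.76) and ID1 (1.33) were higher. CEBPD (log2 -1.08 ± 0.18), SPI1, which encodes PU.1 (26.5 ± 7.64 CPM with 552A and 42.7 ± 7.34 CPM with DMSO, log2 -0.70 ± 0.16, adjusted p = 0.0134), CEBPB (-0.57) and RUNX3 (-0.51) were lower. With GC content and length offsets 3 were higher and 0 lower. The GC content of SPI1 is 65.6% and that of CEBPD 70.02%, and the part of GC content in these calls was not tested further. CEBPA (-0.14 ± 0.13, adjusted p = 0.512) and CEBPE (-0.23 ± 0.19, adjusted p = 0.464) were not called. Both had the opposite sign with the offsets, where CEBPA was called higher (log2 0.55). IRF8, a monocyte lineage factor, had at most 0.115 CPM with 552A and 0.132 CPM with DMSO. Of the progenitor genes GATA2 (-0.48 ± 0.13, adjusted p = 0.0228) was lower, with the opposite sign under the offsets, and KIT was not called (-1.02 ± 0.43, adjusted p = 0.129).

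MYC was called at day 2 alone. It had 548 and 827 CPM with 552A at day 2 and 1113 and 1598 CPM with DMSO, and 2004 and 2669 CPM with 552A at day 4 and 1464 and 1713 CPM with DMSO. At day 2 it was lower (log2 -0.98, adjusted p = 0.0265) and at day 4 it was not called (0.56, adjusted p = 0.255). The difference between the days did not pass the test, at 1.54 ± 0.33 with an unadjusted p of 0.000754 and an adjusted p of 0.945.

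Genes of the integrated stress response and of apoptosis fell in part. Of 17 stress response genes tested 8 were lower and 0 higher, with a median of -0.44, against 9.52% lower and a median of 0.005 over all genes. CHAC1, a glutathione-degrading enzyme (8.36, 8.67, 10.97 and 11.7 CPM with 552A and 28.5, 17.0, 25.3 and 22.3 CPM with DMSO; log2 -1.24 ± 0.17, adjusted p = 0.00068), TRIB3 (295 ± 135 CPM with 552A and 530 ± 96.9 CPM with DMSO; log2 -0.93), ATF5 (-0.77) and DDIT3 (-0.66) were among them. With GC content and length offsets the stress response list had 0 higher and 8 lower, and the ATF5 call ended. In the fit of all 16 HL60 libraries 2 falls remained, CHAC1 and DDIT3. Of 15 BCL2 family genes tested 5 were lower, the pro-apoptotic BBC3 (PUMA; 2.59, 3.57, 7.90 and 8.65 CPM with 552A and 17.2, 8.52, 25.01 and 21.0 CPM with DMSO; log2 -1.74 ± 0.23), BAD (-1.49), BMF (-1.03), HRK (-0.93) and BAX (-0.40), and BIK was higher (0.79). In the family, 2 were higher and 4 lower with GC content and length offsets. BBC3 had a GC content of 64.4% and kept its call with GC content and length offsets, but not in the fit of all 16 HL60 libraries. In that fit BMF alone of the family was called, as lower.

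Cell cycle lists were called at about the share of all genes, of which 8.33% were higher and 9.52% lower. Of 20 mitosis genes 3 were higher, TOP2A (log2 0.79), KIF11 (0.81) and CENPF (0.93), and of 20 S phase genes 3 were lower, the licensing factor gene CDT1 (-1.09) and the helicase genes MCM5 (-0.50) and MCM2 (-0.45). Medians were 0.09 and -0.07, and with GC content and length offsets 2 mitosis genes were higher and 1 S phase gene was lower. Replication-dependent histone genes, whose mRNAs lack a poly(A) tail, were lower in 4 of 9 tested, and DMSO day 2 replicate 1 had the highest level of HIST1H2AG (1165 CPM, against 342 to 556 CPM with 552A and 570 to 734 CPM in the other DMSO libraries). These genes have near-identical copies, so the assignment of reads among them is uncertain. Markers of other lineages did not move as lists. None of the 5 tested mast cell, basophil and eosinophil genes was called, 1 of 7 megakaryocyte and erythroid genes was lower (ZFPM1; with GC content and length offsets NFE2 was higher and none lower) and 1 of 3 lymphoid genes higher (NKG7). Their summed levels were 118 to 260, 450 to 777 and 39.7 to 68.6 CPM with 552A and 132 to 369, 432 to 729 and 47.2 to 66.2 CPM with DMSO, and HBB, PF4, CPA3 and MS4A1 were at 0. Among the called genes named so far, the calls of CAMP, ITGAX, ANPEP, CSF1R, CSF2RB, CD300A, CD38, HLA-DMA, CD1D, AIM2, B2M, ERAP1, DDX58, BST2, SP100, CEBPB, RUNX3, GATA2, ZFPM1, NKG7, MCM2, BAX, BIK, HRK, HIST1H2AG and MT-ND4 ended when at least 1 of the 8 libraries was left out.

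Several immune gene families, grouped after their values had been seen, moved in part. Of the PYHIN family of DNA sensors, which lie beside each other on chromosome 1, the 3 members that passed the filter on low counts were higher (8.33% of all genes were). AIM2 passed that filter with hardly any counts in the DMSO libraries. Beside MNDA, IFI16 had 47.6, 30.95, 43.9 and 53.5 CPM with 552A and 3.93, 3.65, 5.69 and 9.55 CPM with DMSO (log2 3.01 ± 0.22, adjusted p = 8.32e-06), and AIM2 had 0.446 ± 0.0723 CPM with 552A and 0.0202 ± 0.0235 CPM with DMSO. The fourth, PYHIN1, had 20 counts with 552A and 2 with DMSO. Of the clade B serpins, intracellular protease inhibitors, 4 of 5 tested were higher. SERPINB10 and SERPINB2 passed the filter with only 8 and 7 counts in the DMSO libraries, so their calls as higher are partly given by it. SERPINB10 had 10.8, 11.6, 9.53 and 7.30 CPM with 552A and 0.113, 0.132, 0 and 0.0864 CPM with DMSO (log2 6.87 ± 0.35, adjusted p = 2.83e-07), and SERPINB2 reached 4.16 ± 1.83 CPM with 552A, against 0.0694 ± 0.0592 CPM with DMSO. These 2 genes overlap on the same strand of chromosome 18, so reads in the overlap are uncertain. SERPINB1, an inhibitor of neutrophil proteases, had 212 ± 35.5 CPM with 552A and 87.9 ± 27.7 CPM with DMSO, and SERPINB6 was not called (log2 0.10, adjusted p = 0.528).

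Of the GIMAP GTPases on chromosome 7, GIMAP4 had 920 counts with 552A and 1 with DMSO, while its neighbours GIMAP2 and GIMAP1 rose by log2 1.07 and 1.55, GIMAP6 was not called (0.66, adjusted p = 0.0541) and GIMAP5 and GIMAP7 had no counts. The GIMAP1 call ended with GC content and length offsets. In the OAS family OAS1 alone was high enough to test, and OAS2, OAS3 and OASL had at most 0.143 CPM with 552A and 0.264 CPM with DMSO. OAS1, with 22 counts in the DMSO libraries, and GIMAP4 passed the filter on low counts through their 552A libraries. Their calls as higher are therefore partly given by it. The C-type lectins of chromosome 12 moved both ways. CLEC4A, CLEC12A, CLEC7A and CLEC2B were higher, while CLEC4D (0.404, 0.713, 0 and 0 CPM with 552A and 1.32, 3.16, 0.446 and 0.475 CPM with DMSO; log2 -2.41 ± 0.53, adjusted p = 0.0108) and CLEC4E (log2 -1.38 ± 0.34, adjusted p = 0.0164) were lower. CLEC4D and CLEC4E were lower at day 4 than at day 2 under each treatment. The calls of GIMAP1, CLEC4D and CLEC4E ended when at least 1 library was left out.

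**Figure D4:**
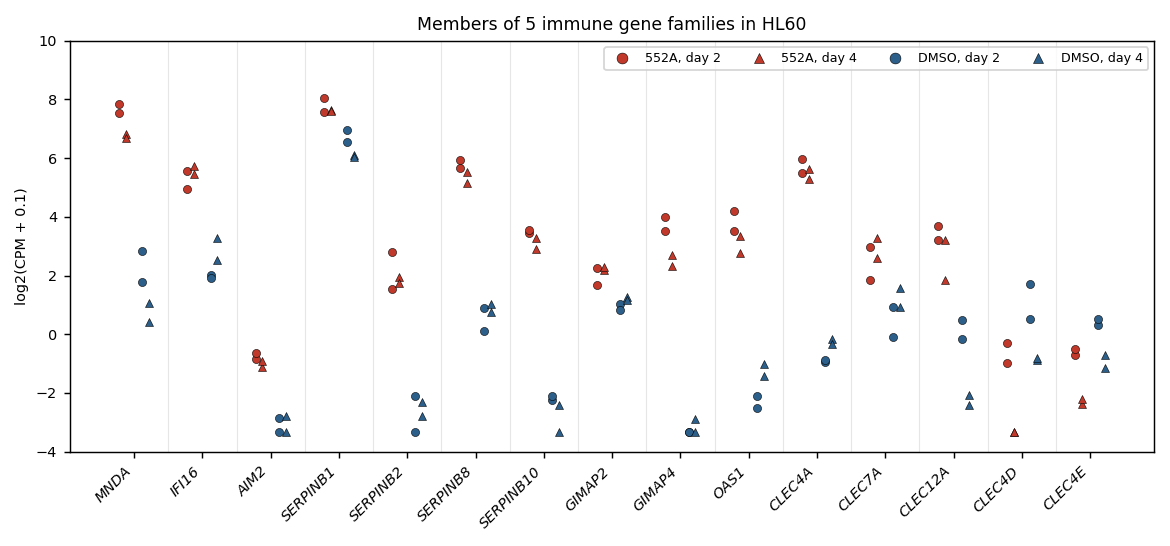
Level in each library, as log2(CPM + 0.1), of members of the immune gene families; 552A libraries are red and DMSO libraries blue, with circles for day 2 and triangles for day 4. OAS1 and SERPINB10 are near the floor with DMSO and high with 552A, and CLEC4D runs the other way.

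The remaining lists stand beside 8.33% higher and 9.52% lower over all genes, and 5.3% and 4.49% with GC content and length offsets. Of 12 stem and progenitor factors MYB, ERG and SOX4 were higher and GATA2 and LYL1 lower, and with the offsets 1 was higher and 0 lower. Of 22 genes of MYC function and ribosome biogenesis 2 were higher and 4 lower, and of 19 cholesterol and fatty acid synthesis genes 3 were lower, and in neither list did a call hold with the offsets. Of 24 lysosomal genes 3 were higher and 3 lower, and with the offsets 1 and 2. Of 13 cell cycle inhibitors RB1 was higher and CDKN2D, GADD45A and GADD45B lower, and with the offsets 1 was higher and 1 lower. Of 8 retinoic acid response genes 3 were higher and 2 lower, and with the offsets 2 and 1. Of 9 Fc receptor genes FCER1G, FCGRT and FCRL4 were higher, and of 6 lipid mediator synthesis genes 3 were higher and 1 lower, the same counts as with the offsets. With all 16 HL60 libraries 1 Fc receptor gene, FCRL4, and 3 lipid mediator genes were higher and 0 of either list lower. In that fit 0 stem and progenitor factors were called. The calls of FCER1G and ERG were among those that ended when at least 1 library was left out. The single epithelial or stromal gene tested was not called.

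The days were also tested apart. At day 2, 802 genes were higher (4.76%) and 1066 lower (6.33%) of 16848 tested (11.1% called), and at day 4, 387 were higher (2.3%) and 202 lower (1.2%), 3.5% in all. With GC content and length offsets day 2 had 453 higher and 227 lower and day 4 had 419 and 222, and in the fit of all 16 HL60 libraries day 2 had 230 and 13. The day 2 count was 443 without 552A day 2 replicate 1, 316 without DMSO day 2 replicate 1, and 1229 and 1206 without replicates 1 and 2 of 552A day 4. The day 4 count was 174 and 210 without replicates 1 and 2 of 552A day 4, 170 and 172 without those of DMSO day 4, and 959 and 944 without those of 552A day 2. A smaller count at day 4 does not show that the effect differed. The difference between the days was called for 0 of 16848 genes by edgeR (0%) and for 12 by DESeq2. In edgeR 855 genes had an unadjusted p under 0.05, which unchanged genes also reach by chance. On simulated counts with a change in 552A day 4 alone, edgeR's test of this difference recovered 0 of 67 genes changed 1.5-fold. It recovered 6 of 67 changed 2-fold and 44 of 66 changed 4-fold, so smaller differences between the days could be missed. For the 16 largest rises the days were alike in direction, which is given by their choice as genes without overlap within either day. RUBCNL had log2 fold changes of 5.62 at day 2 and 7.18 at day 4, and OAS1 of 7.12 and 4.66.

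The response in HL60 was set beside that of the other 5 lines in a fit of 48 libraries. The difference between the effect in HL60 and the mean effect in the others was called for 383 of 22953 genes (1.67%), 215 higher (0.937%) and 168 lower (0.732%). The count was 230 without 552A day 4 replicate 1, 235 without DMSO day 2 replicate 1 and 210 without DMSO day 4 replicate 2, all of HL60. With GC content and length offsets it was 1040. RUBCNL stood 6.10 ± 0.50 log2 units above the other lines (adjusted p = 1.41e-09). In MOLM13 and THP1 its DMSO level was already high, with means of 90.9 CPM with 552A and 79.3 CPM with DMSO in MOLM13 and 155 and 243 CPM in THP1. MNDA stood 5.14 ± 0.32 above (adjusted p = 2.96e-12). Its means were 170 CPM with 552A and 3.68 CPM with DMSO in HL60, and 309 and 200 CPM in OCIAML3. In MV411 it was called lower (log2 -1.21, adjusted p = 0.00641). LYZ rose in all 6 lines, by 6.74 in HL60 and by 1.49 to 4.14 elsewhere, a difference of 3.81 ± 0.21 (adjusted p = 2.39e-13). CLEC4A differed by 4.52 ± 0.42, SERPINB8 by 3.76 ± 0.21 and ITGAM by 2.38 ± 0.24. RUBCNL, MNDA, LYZ, CLEC4A, SERPINB8 and ITGAM were named for large rises in HL60, so a larger effect there is partly given by that choice. AFF2, CUX2, EFNB2 and IL21R had no counts in 1 or 2 of the 20 groups of the other lines, so their mean log2 effect there has no upper or lower limit and this test says nothing about them.

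**Figure D5:**
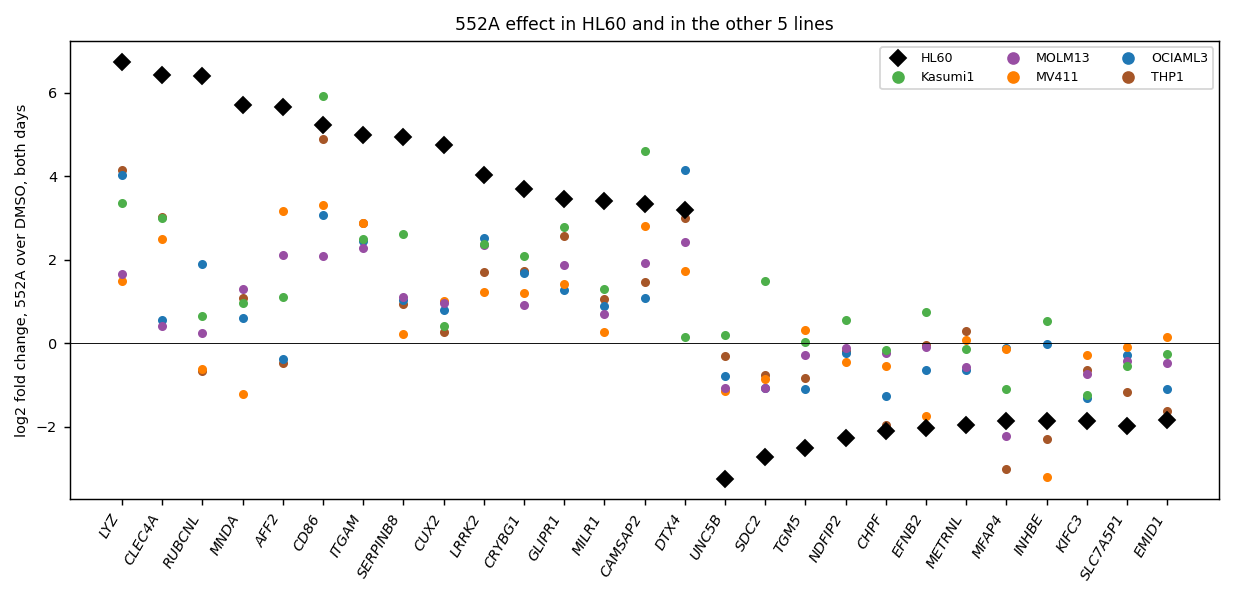
Log2 fold change (552A over DMSO, both days, fit of 48 libraries) of 15 of the 16 largest rises and the 12 largest falls of HL60, with HL60 as black diamonds and the other 5 lines as coloured circles. HL60 lies above all other lines for LYZ, CLEC4A, RUBCNL and MNDA, and Kasumi1 lies above it for CD86 and CAMSAP2. The genes were chosen by their change in HL60, so an extreme place of HL60 is partly given by that choice.

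Some line differences concerned genes near the detection limit in HL60. OAS1 rose by 5.90 in HL60, where it had 12.6 CPM with 552A and 0.234 CPM with DMSO, and differed by 4.78 ± 0.47 (adjusted p = 3.95e-08). The long non-coding RNA gene AC004585.1 had 512 counts in the 552A libraries and 2 in the DMSO libraries, a ratio of 279 (exact 95% interval 76.8 to 2310, counting error only), and differed by 5.58 ± 0.65. ADGRL3 (4.41), PCCA (-3.80) and CPNE3 (-3.17) had group means of 0.25 CPM or less in HL60 under both treatments, so these differences rest on few counts. Lower in HL60 with measurable levels were SDC2 (-2.28 ± 0.38) and NDFIP2 (-2.18 ± 0.22), which fell by at most 1.07 and 0.44 on the log2 scale in the others. GFI1 rose more than in the other lines (0.71 ± 0.10, adjusted p = 1.88e-05), and the pro-apoptotic BMF fell in HL60 and differed by -1.38 ± 0.21 (adjusted p = 0.000104), being called higher in Kasumi1 and THP1. SP140 rose less than in the others (-0.99 ± 0.22, adjusted p = 0.0102).

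Calls in HL60 were set beside those in each other line. In the fit of 48 libraries 791 genes were higher in HL60 and 219 lower, and with GC content and length offsets 963 and 689. Of the 791, 46.4% were also called higher in THP1, where 6.64% of all genes were, 44% in Kasumi1 (6%), 34.5% in OCIAML3 (4.08%), 34.4% in MV411 (5.6%) and 32.7% in MOLM13 (3.17%). These are 24.1%, 25.3%, 29.1%, 21.2% and 35.6% of the genes called higher in those lines. Of the 219 lower genes, 6.85 to 22.4% were called lower in another line, which is 5 to 15.3% of that line's lower calls. The shares of all genes called lower were 4.27% for MV411, 3.62% for THP1, 2.28% for OCIAML3, 1.22% for Kasumi1 and 0.937% for MOLM13. The difference between the shares was not tested. In all 6 lines 85 genes were called higher, among them LYZ, CD86, ITGAM, LY96, SP140, IFI16 and TLR1.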

How the data were processed

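The authors deposited whole-number read counts per gene, not normalised, for 60552 gene rows and 96 libraries, and all columns were matched to labelled samples. Per the labels' protocols, RNA came from TRIzol lysates and libraries from a stranded total RNA kit. Trimmomatic 0.36, STAR 2.4.2a, HTSeq 0.6.0 and GRCh38 are named, per the submitters' processing notes. Overlapping and antisense genes are uncertain, because neither strand setting nor annotation release is given in the sources used here. Symbols came from GENCODE 29 by Ensembl identifier (56994 rows). Rows without a symbol took 0.0323% of all counts in the 8 libraries.

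The members of the comparison, the 31 gene lists (535 genes matched), the naming rules and the tests were chosen with earlier results of these data known. Counts were tested in R 4.3.3 with edgeR 4.0.16 (filterByExpr, TMM, quasi-likelihood test), with calls made below 0.05 after Benjamini-Hochberg adjustment across every gene tested, whatever the fold. Both days were fitted with day as a factor (5 residual degrees of freedom), single days and their difference with 4 groups, and lines with 24 groups of 48 libraries. Every adjusted p comes from these fits. The SE is the log2 fold change divided by the square root of F. Named genes were, first, 16 rises and 12 falls with the greatest log2 fold change. They were taken from calls whose average log2 CPM reached 1 and whose treatments did not overlap within a day. Of all tested genes, 14.4% were higher and 14.9% lower without overlap. Up to 3 called members per list with the smallest p and a fixed set were named too. So were the 5 largest line differences in each direction, among calls whose average log2 CPM over the 48 libraries reached 1. Further called list members are named to account for a count. Precision is limited by counts of 16.62 M to 29.93 M per library. Replicates differed by more than sampling noise (chi-square per degree of freedom 13.3 to 39.0). GC offsets were smooth fits per library in mgcv 1.9.3. Floors and intervals cover counting error only. The scripts were tested on simulated counts. At the 0.05 threshold, false calls made up 7.46% of the calls for both days, 10.2% for day 2 and 13.6% for day 4. For the difference between days they were 9.09%, and for the line difference 5.41%. Alternatives were RLE and upper-quartile factors, no or another filter, DESeq2 1.42.0, GC offsets, replicate blocks, all 16 HL60 libraries, a test against a fold of 1.5 and libraries or lines left out. Protein-coding genes alone were added after seeing the data. Some genes of these sets are not reported here.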

Additional observations from a re-analysis of the deposited data

Results flagged for a closer look

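In 87 checks of the named genes and library measures within the 4 552A or the 4 DMSO libraries, 4 showed 1 library apart from the other 3, and chance gives about 1 in 20. DTX4 had 1.47 CPM in DMSO day 2 replicate 1, above the other DMSO libraries. EFNB2 had 1.96 CPM in 552A day 2 replicate 1, below the other 552A libraries. INHBE had 17.1 CPM in DMSO day 2 replicate 2, below its group, and KDM1A had 303 CPM in the same library, above its group.

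The effect of 552A differed between HL60 and the mean of the other 5 lines, by edgeR's test of the difference, for the following named genes. Genes named for a large change in HL60 are among them, and for these a larger effect in HL60 is partly given by that choice. The log2 difference was positive for RUBCNL (6.10), AC004585.1 (5.58), MNDA (5.14), OAS1 (4.78), CLEC4A (4.52), ADGRL3 (4.41), LYZ (3.81), SERPINB8 (3.76), CLEC12A (3.07), FPR2 (3.01), MILR1 (2.57), ITGAM (2.38), CRYBG1 (2.18), LRRK2 (1.99), GLIPR1 (1.48), CD86 (1.37), ALOX5AP (1.08), TLR1 (0.87) and GFI1 (0.71). It was negative for PCCA (-3.80), CPNE3 (-3.17), UNC5B (-2.62), SDC2 (-2.28), NDFIP2 (-2.18), TGM5 (-2.13), BMF (-1.38), SP140 (-0.99) and CYBB (-0.89). Alternatives were run only for the 10 differences with the greatest size in either direction, and among these the calls of ADGRL3 and CPNE3 ended under at least 1 alternative. ADGRL3 had no counts in the DMSO libraries of HL60, so its fitted difference is no bound. IL21R also passed (-3.67), but 1 group of the other lines had no counts, so the test says nothing about it. It had 3.77 CPM with 552A and 0.0226 CPM with DMSO in Kasumi1, and its difference was -2.42 without that line, no longer called.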

How the results depend on the processing

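Of 99 named genes called across both days, 98 kept their direction under every alternative run, GATA2 being the exception, and 41 kept both direction and call. For both days, 1587 genes were called with GC content and length offsets, 565 with all 16 HL60 libraries and 377 against a fold of 1.5, and 1855 to 3018 with 1 library left out. For day 2 the counts were 680, 3338 with the replicate block and the offsets, 243 with all 16 libraries, and 316 to 2724 with 1 library left out. For day 4 they were 1322 with no filter, 959 with DESeq2, 1041 with the replicate block, 2769 with block and offsets, 172 with all 16 libraries, and 170 to 959 with 1 library left out. The difference between days had 80 calls with no filter, 12 with DESeq2 and 462 with block and offsets. The line difference had 637 with no filter, 599 with DESeq2, 1040 with offsets, 2218 with block and offsets, and 210 to 313 with 1 library left out and 299 to 493 with 1 other line left out. The cause was not tested.

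Signs turned with the offsets, and with the block and the offsets, for GATA2 (0.13 and 0.14), CEBPA (0.55 and 0.56), CEBPE (0.32 and 0.33), MYC (0.057 and 0.071) and CDKN2A (0.12 and 0.11). With 1 library left out the range held both signs for KDM1A (-0.075 to 0.066), RCOR1 (-0.128 to 0.028), CEBPE (-0.37 to 0.021) and MYC (-0.448 to 0.079).

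Replicate numbers are not said to pair samples. Differences between replicates 1 and 2 correlated at 0.315 across genes between the treatments at day 2 and 0.284 at day 4, with 2 pairs a day, and the replicate block gave 3476 calls for both days, 2582 for day 2, 0 for the difference between days and 513 for lines. With 4 libraries a group, depth limits statements on genes under about 1 CPM.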
